A study of Mus musculus with 18 samples.

Results

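Mouse AB1 embryonic stem (ES) cells lacking Cyp26a1 were compared with wild-type AB1 cells after 72 h of 100 nM retinoic acid (RA), both in the presence of leukemia inhibitory factor (LIF). The comparison rests on 4 of the 18 arrays of the series, 2 of knockout cells and 2 of wild-type cells, chosen by their labels alone. The other arrays in the main fit are 3 of untreated cells at 8 h and 3 of cells given 100 nM RA for 8 h in each genotype, all with LIF. They supply the spread of the fit, and the genotype difference on these 12 arrays stands beside that at 72 h. The labels list no untreated group at 72 h, so the action of RA over that time and the time itself cannot be told apart. They do not say how many knockout clones were used, nor which part of Cyp26a1 was removed, and they do not state that repeats came from separate cultures. Each p-value below thus reflects variation among these arrays only, which may be technical.

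RA is made from vitamin A and binds RA receptors, nuclear receptors that pair with retinoid X receptors on DNA and switch on genes such as Hox and Cdx genes. CYP26A1 is a cytochrome P450 that oxidises RA to more polar products, and its own gene is induced by RA, so that the enzyme forms a feedback on RA levels. LIF keeps mouse ES cells undifferentiated through the transcription factor STAT3, whereas RA drives them out of that state.

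The 4 arrays at 72 h had median signals of 60.8 to 75.6 units, where a unit is the array signal after scaling to a trimmed mean of 500. Between 41.6% and 46.1% of their probe sets lay under 50 units, the floor used for log2 values. The replicate arrays correlated across genes at a Pearson's r of 0.981 (wild type) and 0.984 (knockout). Markers of ES cells were detected in both genotypes at 72 h: the summed signal of 6 such genes was 78602 and 72975 units in wild type and 95611 and 93251 units in the knockout. Pou5f1, the central pluripotency factor, read 11838 and 10090 units in wild type and 13482 and 13715 units in the knockout. Replicate 2 of the wild type stood apart. There 18 of 18194 genes read at least 200 units and at least 4-fold above each of the other 3 arrays at 72 h, against 0 for wild-type replicate 1, 0 for knockout replicate 1 and 1 for knockout replicate 2. Among them were the collagens Col1a2 and Col3a1 and the imprinted RNA Meg3, which read 49.4 and 2018 units in wild type and 102 and 48.0 units in the knockout. The summed signal of 7 fibroblast markers was 354 and 1365 units in wild type and 261 and 262 units in the knockout, and 1 of these 7 genes passed the filter. In replicate 1 the untreated arrays labelled with LIF went against that label: Socs3, a feedback inhibitor induced by LIF, read 367 (wild type) and 215 (knockout) units there, against 3800 and 4551 units on those labelled without LIF. With these labels exchanged the count at 72 h below was 604 in place of 463. In these bulk samples, fewer cells of a type and less RNA per cell cannot be told apart.

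Knockout cells after 72 h of RA read lower than wild type for genes of smooth muscle and the actin cytoskeleton, for keratins and for several genes of trophoblast, growth arrest and imprinted loci. They read higher for genes of the low-oxygen and glycolytic programme and for a small number of pluripotency genes. The gene lists behind these groups were chosen with earlier results of these data known, so their counts are descriptions. Of 11388 genes tested, 463 were called (4.07%) at a limma adjusted p of 0.05. Of these, 158 were higher (1.39%) and 305 lower (2.68%) in the knockout, and 1821 genes had an unadjusted p under 0.05. The lower genes differed by more: 223 of the 305 differed at least 2-fold, 49 at least 4-fold and 12 at least 8-fold, against 44, 4 and 0 of the 158 higher genes. The median size on the log2 scale was 1.30 for the lower genes and 0.80 for the higher ones. For 29 of the lower genes the size is a lower bound, because both knockout arrays lay at the floor. The knockout and wild-type arrays did not overlap for any of the 463 genes, as for 48.3% of all genes tested.

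These calls rest on 2 arrays a group. The count over all genes fell when any of the 4 arrays was left out, so a fall alone in a list count below is not particular to that list. Blocking on the replicate number gave 1004 calls (8.82% of all genes tested, the share to set beside each blocked count below), of which 405 were higher and 599 lower, and they included all 463 genes. A fit of the 4 arrays alone called 73 genes, 21 higher and 52 lower. Without wild-type replicate 1 the count was 245, without wild-type replicate 2 it was 177, without knockout replicate 1 it was 203 and without knockout replicate 2 it was 190. Of the 463 genes, 224, 165, 196 and 180 were still called under those omissions in that order.

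Cyp26a1 itself read 3402 and 3211 units in wild type and 2873 and 3075 units in the knockout at 72 h. The difference was -0.15 ± 0.35 on the log2 scale (± standard error here and below, adjusted p = 0.911), so none was detectable at 72 h. In untreated cells, where it lay near the floor, the difference was -0.40 ± 0.29 (adjusted p = 0.583). After 8 h of RA, Cyp26a1 ranged from 637 to 1695 units in wild type and from 193 to 216 units in the knockout, a difference of -2.18 ± 0.29 (adjusted p = 0.000762). As the labels do not say which part was removed, the probe set checks nothing about the knockout. The 250 bases before its start, shown because Cyp26a1 is the gene under study and is RA-induced, hold 1 DR5 element at 32 bases before the start. A DR5 element is a direct repeat of the core site of the receptors with a gap of 5 bases, and was searched by its name. Both strands were searched, and the capitals mark the match, which lies on the reverse strand. Of 32851 RefSeq promoters of this length, 29 hold such an element (0.0883%). Of the 10 RA-induced genes with a promoter sequence, 2 hold it in at least 1 promoter, Cyp26a1 and Rarb, the gene of RA receptor beta. This count is per gene and the share is per promoter, so they are unlike measures. The sequence is from RefSeq, build GRCm38.p6, chr19:37697558-37697807, plus strand.
Cyp26a1: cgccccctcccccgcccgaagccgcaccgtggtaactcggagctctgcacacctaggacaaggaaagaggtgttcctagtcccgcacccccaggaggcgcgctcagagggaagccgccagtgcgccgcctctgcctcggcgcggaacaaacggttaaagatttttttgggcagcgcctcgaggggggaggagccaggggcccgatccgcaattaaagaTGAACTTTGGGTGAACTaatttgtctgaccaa

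Of 15 RA-induced genes tested, 1 was higher and 2 were lower between genotypes (20% called, against 4.07% of all genes tested), with a median difference of -0.49 against -0.01 over all genes. The lower genes were Tshz1, a zinc finger factor, and Meis1, a homeobox partner of Hox proteins. Tshz1 read 363 and 763 units in wild type and 197 and 133 units in the knockout (-1.70 ± 0.32, adjusted p = 0.00574). Meis1 read 728 and 921 units in wild type and 330 and 245 units in the knockout (-1.53 ± 0.30, adjusted p = 0.00715). For both genes each knockout array lay below each wild-type array, as for every lower gene called. Both calls were lost without wild-type replicate 2 or knockout replicate 2. Gbx2, a homeobox gene also listed with the naive-state factors, read 1114 and 1179 units in wild type and 2641 and 2183 units in the knockout (1.07 ± 0.26, adjusted p = 0.0291). That call was lost without any of the 4 arrays.

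Stra8, which RA induces before meiosis, read 9751 and 8289 units in wild type and 13279 and 12608 units in the knockout (0.53 ± 0.33, adjusted p = 0.501). Rarb read 566 and 514 units in wild type and 346 and 310 units in the knockout (-0.72 ± 0.23, adjusted p = 0.107). Neither passed the test. Against untreated cells of their own genotype, the 15 RA-induced genes had median log2 responses of 3.43 (wild type) and 2.79 (knockout). These responses share the arrays at 72 h with the genotype difference, and are given side by side only. Of 12 receptors and cofactors of RA tested, 0 were called by limma, with a median of 0.07, 2 had an unadjusted p under 0.05 and 1 was called with the replicate block. Of 11 genes of retinoid metabolism tested, 1 was lower (9.09% called, against 4.07% of all genes), with a median of -0.24. This was Fabp5, a fatty acid binding protein that also carries RA. It read 5307 and 6288 units in wild type and 2493 and 2327 units in the knockout (-1.26 ± 0.21, adjusted p = 0.00235), and was lower on the 8 h arrays too (-1.12, adjusted p = 2.72e-05). Cyp26b1, a second RA hydroxylase, read 465 and 556 units in wild type and 321 and 294 units in the knockout and was not called (adjusted p = 0.0804).

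RA switches on Hox genes in order along their clusters. Of 18 Hox, Cdx and Meis genes tested, 2 were lower and 0 higher (11.1% called, against 4.07% of all genes), with a median of -0.17, and the second lower gene beside Meis1 was Hoxc5. Hoxc5 read 161 and 221 units in wild type and 85.3 and 81.9 units in the knockout (-1.17 ± 0.23, adjusted p = 0.00825). Its call was lost without wild-type replicate 2 or knockout replicate 2. Hoxb4, which lies in another cluster, read 408 and 416 units in wild type and 813 and 797 units in the knockout (0.97 ± 0.28, adjusted p = 0.0712), and its adjusted p was 0.0211 with the replicate block. It was chosen after its values were seen.

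Among the 30 lists, which were chosen with earlier results of these data known, that of smooth-muscle and cytoskeletal genes held the most called members. Smooth-muscle cells and cells under tension express actins, their binding proteins and the myosin light chain, many of them under serum response factor. Of 20 genes tested, 15 were lower (75%) and 0 higher, and all 20 had a difference below 0, with a median of -1.45. The share of lower genes over all genes tested was 2.68%, and 5843 of all 11388 genes had a difference below 0. For 19 of the 20 the arrays did not overlap between genotypes, as for 48.3% of all genes tested and for every gene called. With the mean over the probe sets of a gene 12 of the 20 were lower, with a median of -1.16, and 4.25% of all genes were called.

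Tagln, the actin-binding protein SM22, read 3654 and 4552 units in wild type and 67.5 and 128 units in the knockout at 72 h. All 12 arrays at 8 h lay under the floor for Tagln. The difference was -5.46 ± 0.27 (adjusted p = 2.35e-08), the largest among the genes called. The 8 h arrays at the floor add no spread to the fit, so this standard error and p may be too small. In the fit of the 4 arrays alone the limma adjusted p of Tagln was 0.0207. Acta2, smooth-muscle actin, read 1859 and 3757 units in wild type and 158 and 152 units in the knockout (-4.09 ± 0.51, adjusted p = 0.000522). On the 8 h arrays its genotype difference was 0.02.

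Myl9, the regulatory light chain of smooth-muscle myosin, read 550 and 620 units in wild type and 57.3 and 65.2 units in the knockout (-3.26 ± 0.35, adjusted p = 0.000185). Tpm1, a tropomyosin that lines the actin filament, read 5640 and 6896 units in wild type and 1021 and 987 units in the knockout (-2.64 ± 0.29, adjusted p = 0.000185). Cnn1, the smooth-muscle calponin, read 193 and 221 units in wild type and 43.9 and 10.02 units in the knockout, which is a fall by at least 2.05 on the log2 scale (adjusted p = 0.000185). In these genes the wild-type arrays were high and both knockout arrays were near the level of the 8 h arrays.

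Tpm4, another tropomyosin, read 4450 and 6037 units in wild type and 2010 and 1725 units in the knockout (-1.48 ± 0.19, adjusted p = 0.000615), and was already lower on the 8 h arrays (-0.87). Acta1, skeletal actin, stood outside this list but among the 15 largest falls. It read 581 and 504 units in wild type and 9.67 and 17.3 units in the knockout, so the log2 difference was at least -3.44 ± 0.34 in size (adjusted p = 0.000112). The calls of Tagln, Acta2, Myl9, Tpm1, Cnn1, Tpm4 and Acta1 held without each of the 4 arrays in turn. In the fit of the 4 arrays alone, Tpm4 was not called (adjusted p = 0.0527).

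**Figure D1:**
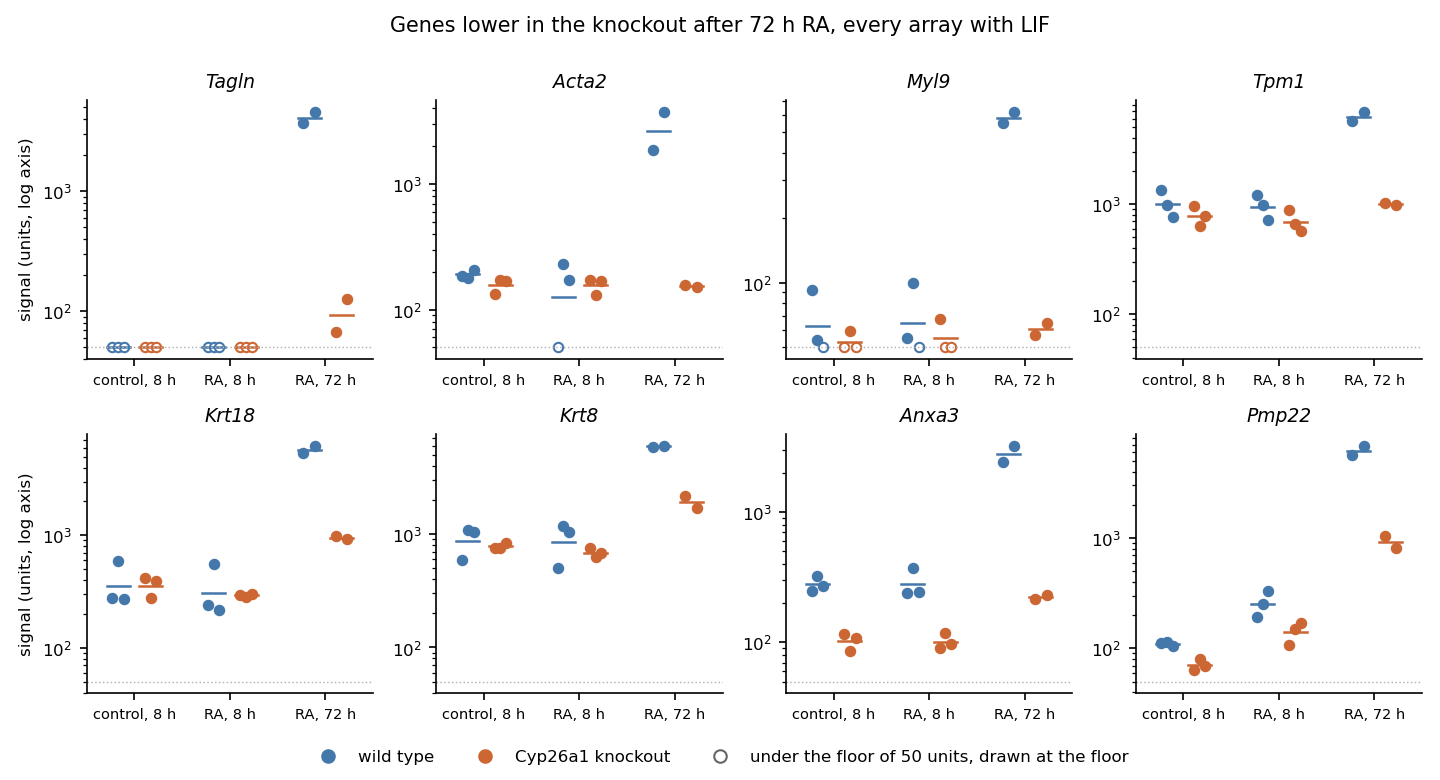
Signal of 8 genes lower in the knockout, in units on a log axis, for every array with LIF at 8 h (control or RA) and at 72 h (RA); points are arrays, bars are geometric means of values floored at 50 units, and open points lay under that floor. At 72 h the wild-type arrays of Tagln read 3654 and 4552 units and the knockout arrays 67.5 and 128 units.

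The other called members of the list, which lie outside the rule for naming genes, were Ccn1, Cnn2, Thbs1, Palld, Ccn2, Tpm2, Zyx, Cald1 and Flna. Their log2 differences ran from -2.34 for Ccn1 to -0.88 for Flna. Ccn1 and Ccn2 encode matricellular proteins that respond to serum and tension, and their differences on the 8 h arrays were -1.51 and -1.30. Palld, an actin-bundling scaffold, differed by -1.87 at 72 h and by -2.45 on the 8 h arrays. The members not called were Vcl, Vim, Actn1, Cnn3 and Lmna, of which Vcl, the focal adhesion protein vinculin, was called with the replicate block (adjusted p = 0.0156).

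Across the list the median difference was -0.28 on the 8 h arrays, where 6 members were lower (7.71% of all genes were lower there), and 6 members were called in the change of the difference from 8 h to 72 h (0.588% of all genes). Against untreated cells of their own genotype, the members had median log2 responses of 1.47 (wild type) and 0.26 (knockout) after 72 h. Signal of fibroblast markers was higher in wild-type replicate 2, as given above. Without that array 10 members were lower, 19 of 20 lay below 0 and the median was -1.56. Leaving out the other arrays at 72 h in turn gave 11 or 12 lower members and medians of -1.56 to -1.37. Of the genes of this list, Acta2 lies on chromosome 19, Palld and Tpm4 on chromosome 8 and Flna on the X chromosome. Acta1 lies on chromosome 8.

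The promoters of 3 of these lower genes are shown because each holds a CArG box, the element that serum response factor binds. It was searched by name on both strands in the 250 bases before the start, and the capitals mark it. It lies 73 bases before the start in Acta1, 161 in Myl9 and 56 in Cnn2, a calponin of non-muscle cells. Of the 17 list members with a promoter sequence, 3 hold it in at least 1 promoter, Cnn2, Myl9 and Vcl. Of single promoters 482 of 32851 hold it (1.47%), an unlike measure, since a gene may have several promoters. Tagln is not shown. A match of letters is a description and not a bound site. The sequences are from RefSeq, build GRCm38.p6: Acta1 chr8:123894776-123895025, minus strand, Myl9 chr2:156775214-156775463, plus strand, and Cnn2 chr10:79988350-79988599, plus strand.
Acta1: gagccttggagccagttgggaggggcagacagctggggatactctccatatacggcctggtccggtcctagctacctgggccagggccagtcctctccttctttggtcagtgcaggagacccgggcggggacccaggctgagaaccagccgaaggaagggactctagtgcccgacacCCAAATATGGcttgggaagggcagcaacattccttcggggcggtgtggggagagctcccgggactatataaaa
Myl9: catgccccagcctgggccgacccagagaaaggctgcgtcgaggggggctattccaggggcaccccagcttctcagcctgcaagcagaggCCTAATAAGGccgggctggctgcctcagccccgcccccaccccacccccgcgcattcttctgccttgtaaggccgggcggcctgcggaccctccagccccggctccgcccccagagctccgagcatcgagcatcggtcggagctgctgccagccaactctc
Cnn2: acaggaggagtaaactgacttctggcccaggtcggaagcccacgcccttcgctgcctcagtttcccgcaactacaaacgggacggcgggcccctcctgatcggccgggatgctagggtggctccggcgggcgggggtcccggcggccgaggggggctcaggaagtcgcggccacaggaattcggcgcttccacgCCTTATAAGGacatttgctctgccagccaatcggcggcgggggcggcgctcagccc

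Keratins, the filament proteins of simple epithelia, and tight junction genes came next. Of 15 genes of this list tested, 7 were lower and 0 higher (46.7% called, against 4.07% of all genes), with a median of -1.18. With a filter of 2 arrays at 200 units 5 of 13 were lower, with a median of -0.36, and 3.98% of all genes were called. With the mean over the probe sets of a gene 6 of 15 were lower, with a median of -0.66, and 4.25% of all genes were called. Krt18 and Krt8 encode the filament pair of simple epithelia. Krt18 read 5364 and 6210 units in wild type and 977 and 923 units in the knockout (-2.60 ± 0.40, adjusted p = 0.00163). Krt8 read 5907 and 5970 units in wild type and 2179 and 1715 units in the knockout (-1.62 ± 0.33, adjusted p = 0.0105). Both were high in wild type on each array and lower, though still above the 8 h arrays, in the knockout.

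Krt19, another keratin, read 490 and 758 units in wild type and 128 and 133 units in the knockout (-2.22 ± 0.49, adjusted p = 0.0166). Krt7 read 229 and 196 units in wild type and 87.6 and 49.8 units in the knockout (-1.68 ± 0.27, adjusted p = 0.00209), a size that is understated since 1 knockout array lay at the floor. Krt20 read 261 and 193 units in wild type and 84.0 and 81.9 units in the knockout (-1.43 ± 0.23, adjusted p = 0.0021). The tight junction genes Cldn4 (-1.47 ± 0.26) and Cldn6 (-2.13 ± 0.50), the latter named outside the rule, were lower too. Ocln, the tight junction protein occludin, differed the other way without a call (0.98 ± 0.38, adjusted p = 0.203), and Tjp1, a scaffold of the junction, was not called (-0.30 ± 0.12). Cdh1, the epithelial cadherin, and Epcam, an epithelial surface protein, were not called, with differences of -0.36 and 0.21. The calls of Krt18, Krt7 and Krt20 held without each of the 4 arrays. Krt19 was lost without any of them. Krt8 was lost without either wild-type array or knockout replicate 2, Cldn4 without wild-type replicate 1, and Cldn6 without either wild-type array or knockout replicate 1. The list held 3 calls without wild-type replicate 1, 4 without wild-type replicate 2 and 5 without either knockout array, and 8 with the replicate block.

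Trophoblast genes were lower in part. Of 10 tested, 3 were lower and 0 higher (30% called, against 4.07% of all genes). All 10 lay below 0, as did 5843 of all 11388 genes, and the median was -1.11. Beside Krt7 these were Gata3, a trophoblast transcription factor, and Rhox6, an X-linked homeobox gene of the placenta. Rhox6 read 215 and 444 units in wild type and 30.5 and 21.0 units in the knockout, a fall by at least 2.63 (adjusted p = 0.000664). Gata3 read 159 and 118 units in wild type and 34.7 and 12.8 units in the knockout, a fall by at least 1.45 (adjusted p = 0.00217). These 3 calls held without each of the 4 arrays. Cdx2, a defining trophoblast factor, did not pass the filter on dim genes. Hand1 was not called (-0.65 ± 0.45). With a filter of 2 arrays at 200 units 1 of 6 trophoblast genes tested was lower, and 3.98% of all genes were called.

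Among annexins and S100 proteins, which bind calcium and membranes, 3 of 12 tested were lower and 0 higher. That is 25% called, against 4.07% of all genes, with a median of -0.86. With the replicate block 6 were lower. Anxa3 read 2411 and 3214 units in wild type and 214 and 231 units in the knockout (-3.65 ± 0.26, adjusted p = 2e-06). It was lower on the 8 h arrays as well (-1.45). Its call held without each of the 4 arrays. S100g, calbindin, read 104 and 189 units in wild type and 24.4 and 5.598 units in the knockout, a fall by at least 1.49 that was lost without wild-type replicate 2. S100a10, an annexin A2 partner, read 2912 and 3384 units in wild type and 1899 and 1898 units in the knockout (-0.73 ± 0.19, adjusted p = 0.0442), and was lost without any of the 4 arrays. Anxa1 read 1297 and 4344 units in wild type and 437 and 561 units in the knockout (-2.26 ± 0.70, adjusted p = 0.0912), and its adjusted p was 0.00771 with the replicate block and 0.604 without wild-type replicate 2.

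Of 23 genes of growth arrest and cell cycle inhibition tested, 4 were lower and 1 higher (21.7% called, against 4.07% of all genes). The median was -0.34, and with the replicate block 8 were lower and 1 higher. Pmp22, a myelin protein first found in growth-arrested cells, read 5612 and 6810 units in wild type and 1034 and 817 units in the knockout (-2.75 ± 0.27, adjusted p = 9.1e-05). Cdkn2b, the CDK inhibitor p15, read 296 and 464 units in wild type and 77.8 and 17.4 units in the knockout (-2.57 ± 0.36, adjusted p = 0.000951), understated for the same reason as Krt7. Both calls held without each of the 4 arrays. Cdkn1a, the CDK inhibitor p21, read 1591 and 1732 units in wild type and 665 and 943 units in the knockout (-1.07 ± 0.22, adjusted p = 0.0114). Gas1, a membrane protein of growth arrest, differed by -1.87 ± 0.43 (adjusted p = 0.0226) and Gas5, a host gene of small nucleolar RNAs, by 0.34 ± 0.09 (adjusted p = 0.0373). The Cdkn1a call was lost without knockout replicate 1 or either wild-type array, the Gas1 call without wild-type replicate 2 or either knockout array, and the Gas5 call without any of the 4. Of 27 proliferation genes, 0 were called by limma, with a median of 0.14, 6 had an unadjusted p under 0.05 and 6 were called with the replicate block, 3 each way.

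Imprinted genes, which are expressed from 1 parental copy, were called in numbers that depended on single arrays of either genotype, as did the count over all genes. Their median moved most without the wild-type array that stood apart. Of 22 tested, 5 were lower and 0 higher (22.7% called, against 4.07% of all genes), with a median of -0.96. The median was -0.95 without knockout replicate 1 and -1.02 without knockout replicate 2. Without wild-type replicate 2 the count was 1 and the median -0.35, and without wild-type replicate 1 they were 4 and -1.17. Without knockout replicate 1 the count was 2 and without knockout replicate 2 it was 1. The gene called in each case was Dlk1, a Notch-like growth regulator, which read 802 and 597 units in wild type and 142 and 106 units in the knockout (-2.50 ± 0.28, adjusted p = 0.00021). Peg3, a zinc finger factor, read 1125 and 4885 units in wild type and 476 and 373 units in the knockout (-2.48 ± 0.54, adjusted p = 0.0152), and -1.42 without wild-type replicate 2 (adjusted p = 0.243). Mest, a hydrolase-like protein, read 4185 and 12357 units in wild type and 2851 and 3041 units in the knockout (-1.29 ± 0.33, adjusted p = 0.0411), and -0.51 without wild-type replicate 2 (adjusted p = 0.409). In Peg3 and Mest the wild-type arrays differed from each other by more than wild-type replicate 1 did from the knockout, and both calls were lost without wild-type replicate 2 or either knockout array. Igf2, the fetal growth factor, read 2308 and 2164 units in wild type and 672 and 763 units in the knockout (-1.64 ± 0.35, adjusted p = 0.0134), a call that was lost without any of the 4 arrays. Plagl1 differed by -1.50 ± 0.31 and was lost without replicate 2 of either genotype.

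Cadherins and regulators of the epithelial-mesenchymal shift gave 4 lower and 0 higher of 16 tested. That is 25% called, against 4.07% of all genes, with a median of -0.60. Cd44, the hyaluronan receptor, read 178 and 181 units in wild type and 37.7 and 33.1 units in the knockout, a fall by at least 1.84 (adjusted p = 0.000398) that held without each of the 4 arrays. Cdh2, the neural cadherin, read 251 and 609 units in wild type and 113 and 98.1 units in the knockout (-1.89 ± 0.34, adjusted p = 0.00487) and was lost without wild-type replicate 2 or knockout replicate 2. Snai2, a repressor of epithelial genes, differed by -1.84 ± 0.43 and was lost without any of the 4 arrays. Itgb1, the beta-1 integrin, differed by -0.57 ± 0.13 and was lost without knockout replicate 1 or either wild-type array. Without wild-type replicate 2 the list held 1 call, and without each of the others it held 2.

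**Figure D2:**
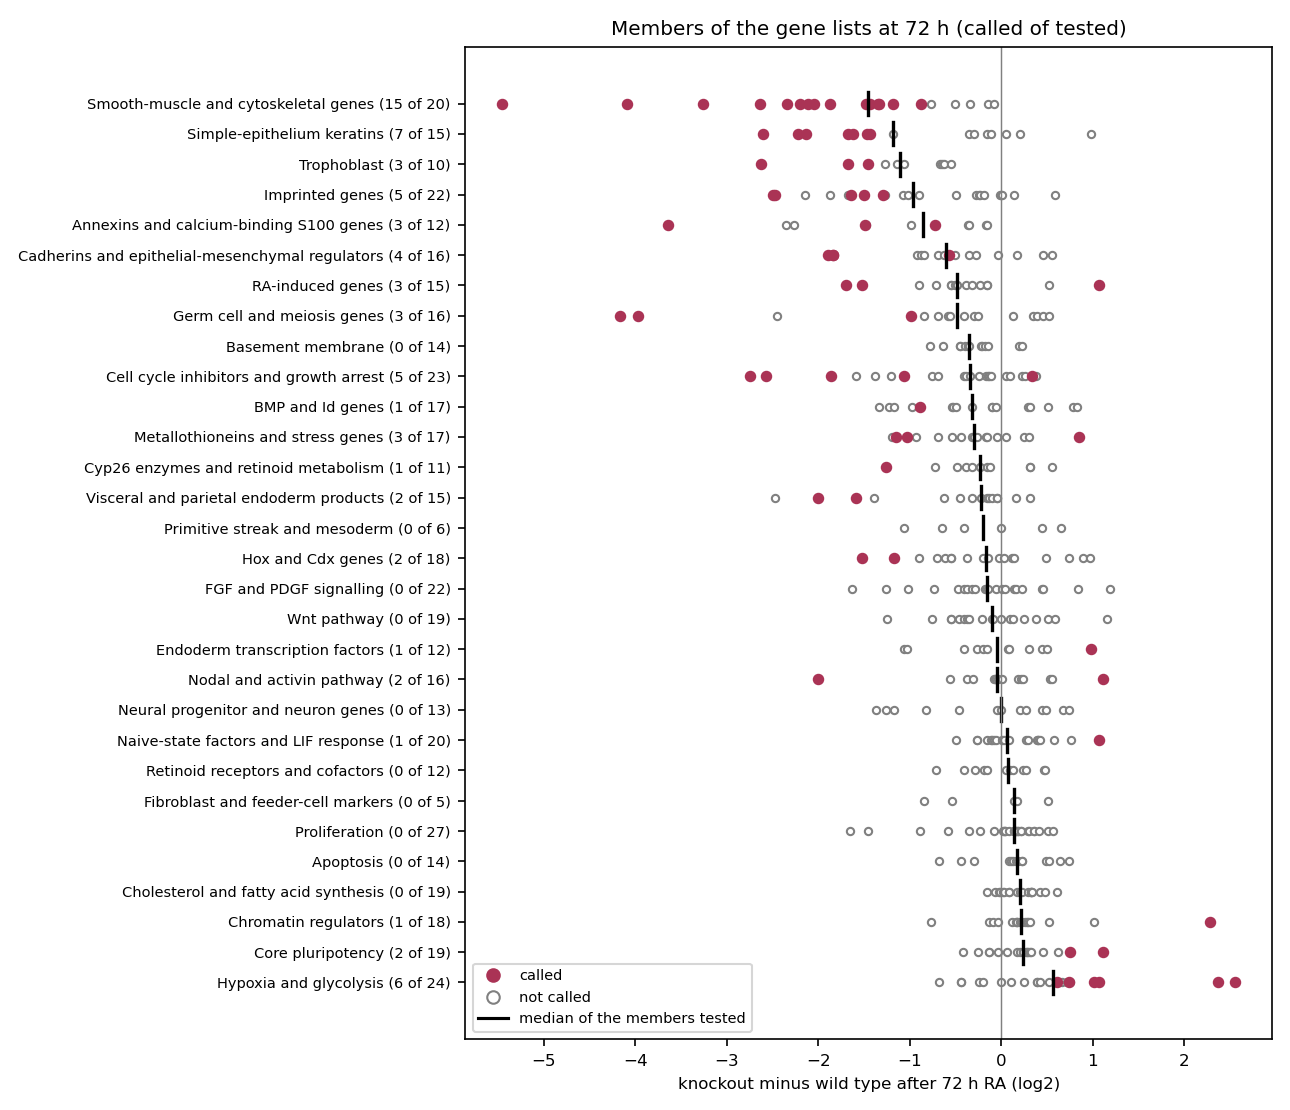
Log2 difference, knockout minus wild type after 72 h RA, for each tested member of the 30 gene lists, ordered by median; filled points are called, open points are not, and bars are medians. The list of smooth-muscle and cytoskeletal genes has a median of -1.45 with 15 of 20 members called, and that of hypoxia and glycolysis a median of 0.57 with 6 of 24. Of all genes tested 4.07% were called.

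The higher side was led by genes that cells switch on when oxygen is low, a list also chosen with earlier results of these data known. Of 24 genes of hypoxia and glycolysis tested, 6 were higher and 0 lower, with a median of 0.57 (1.39% of all genes were higher). With the replicate block 12 were higher and 0 lower, where 405 of all 11388 genes were higher. Bnip3, a mitochondrial protein of mitophagy, read 353 and 541 units in wild type and 2445 and 2708 units in the knockout (2.56 ± 0.50, adjusted p = 0.00819). Ndufa4l2, a mitochondrial protein induced by low oxygen, read 40.4 and 87.1 units in wild type and 296 and 391 units in the knockout (2.36 ± 0.32, adjusted p = 0.000829), an understated size. Ldha, lactate dehydrogenase, read 12910 and 14576 units in wild type and 21647 and 24307 units in the knockout (0.74 ± 0.12, adjusted p = 0.00201). In each the knockout arrays were high and did not overlap with the wild type, as for every gene called.

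Epas1, the oxygen-regulated factor HIF-2 alpha, read 1345 and 1051 units in wild type and 2757 and 2250 units in the knockout (1.07 ± 0.20, adjusted p = 0.00537). Pdk1, which holds pyruvate back from the mitochondria, read 1011 and 1400 units in wild type and 2118 and 2703 units in the knockout (1.01 ± 0.22, adjusted p = 0.0176). Ero1a, an oxidase of the endoplasmic reticulum, differed by 0.61 ± 0.14 (adjusted p = 0.021). Hif1a, the other oxygen-regulated subunit, differed by 0.00 ± 0.17 and Vegfa, the endothelial growth factor, by -0.20 ± 0.37, and neither was called. The list held 7 higher and 2 lower members on the 8 h arrays, with a median of 0.25. Of all genes tested, 5.22% were higher and 7.71% lower there. At 8 h Bnip3 differed by 1.64 and Ndufa4l2 by 1.09, both called. The calls of Ndufa4l2 and Ldha held without each of the 4 arrays. That of Bnip3 was lost without wild-type replicate 1 or either knockout array, that of Epas1 without knockout replicate 1 or wild-type replicate 2, that of Pdk1 without wild-type replicate 1 or knockout replicate 2, and that of Ero1a without wild-type replicate 2 or either knockout array. The list held 4 calls without either wild-type array and 3 without either knockout array.

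Related genes outside this list were among the 15 largest rises. Slc16a3, a lactate exporter, read 233 and 195 units in wild type and 871 and 707 units in the knockout (1.88 ± 0.40, adjusted p = 0.0121). Tpi1, a glycolytic enzyme, read 3592 and 4584 units in wild type and 9618 and 10331 units in the knockout (1.30 ± 0.24, adjusted p = 0.00567), with 1.02 on the 8 h arrays. Slc16a3 was lost without any of the 4 arrays, and Tpi1 without wild-type replicate 1 or knockout replicate 2.

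The promoters of Bnip3 and Slc16a3 are shown because these higher genes hold ACGTG, the core of the element bound by hypoxia-inducible factors. Both strands were searched and the capitals mark the matches. In Bnip3 the matches on the 2 strands overlap in 1 palindrome, 108 bases before the start, and in Slc16a3 they lie 27 and 14 bases before it. ACGTG is common: 5444 of 32851 promoters hold it (16.6%). Of the 20 list members with a promoter sequence 15 hold it in at least 1 promoter, and 3 of those 15 were called at 72 h. That count is per gene and the 16.6% is per single promoter, so they are unlike measures. The sequences are from RefSeq, build GRCm38.p6: Bnip3 chr7:138909507-138909756, minus strand, and Slc16a3 chr11:120948817-120949066, plus strand.
Bnip3: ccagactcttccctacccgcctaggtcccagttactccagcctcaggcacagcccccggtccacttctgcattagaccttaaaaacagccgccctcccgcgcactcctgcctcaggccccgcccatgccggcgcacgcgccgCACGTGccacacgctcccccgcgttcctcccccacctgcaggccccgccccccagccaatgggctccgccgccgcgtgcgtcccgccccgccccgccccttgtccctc
Slc16a3: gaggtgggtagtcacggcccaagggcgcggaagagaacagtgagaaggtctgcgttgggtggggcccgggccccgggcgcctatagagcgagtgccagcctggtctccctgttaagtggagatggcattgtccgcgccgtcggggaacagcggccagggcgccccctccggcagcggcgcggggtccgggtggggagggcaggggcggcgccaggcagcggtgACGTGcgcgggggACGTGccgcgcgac

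**Figure D3:**
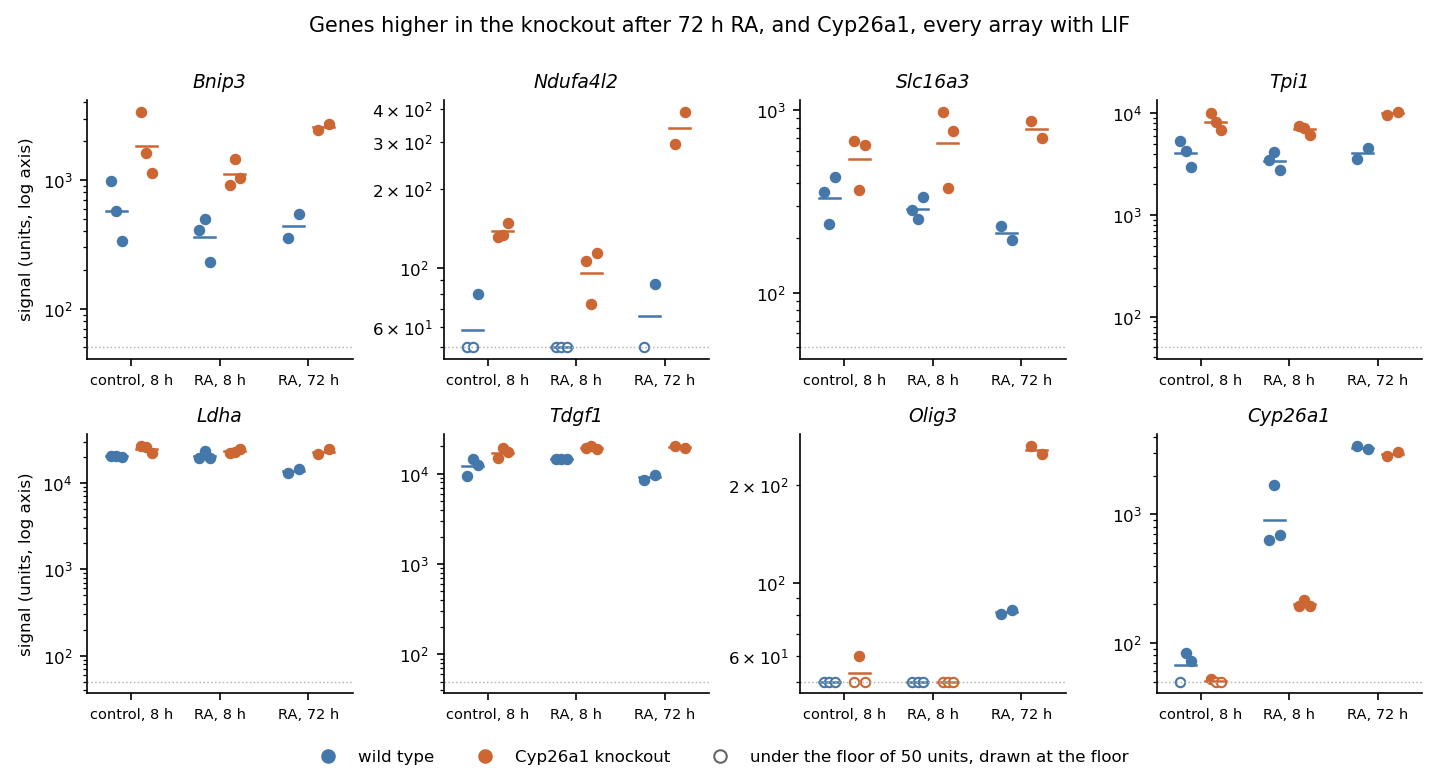
Signal of 7 genes higher in the knockout after 72 h RA, and of Cyp26a1, drawn as in the plot of the lower genes. Bnip3 read 353 and 541 units in wild type and 2445 and 2708 units in the knockout at 72 h, and Cyp26a1 read 3402 and 3211 against 2873 and 3075 units.

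Of 19 core pluripotency genes tested, 2 were higher and 0 lower (10.5% called, against 4.07% of all genes), with a median of 0.24. Tdgf1, the Nodal co-receptor Cripto, read 8444 and 9756 units in wild type and 19970 and 19228 units in the knockout (1.11 ± 0.16, adjusted p = 0.00104). Its call held without each of the 4 arrays, and it was higher on the 8 h arrays too (0.46). Utf1, a chromatin-bound ES cell factor, read 3343 and 2977 units in wild type and 5372 and 5260 units in the knockout (0.75 ± 0.20, adjusted p = 0.0462), a call that was lost without any of the 4 arrays. From untreated cells to 72 h of RA, Utf1 fell by 1.497 in wild type and by 0.78 in the knockout on the log2 scale, both called by limma. Nanog differed by 0.17 ± 0.24 and Sox2 by 0.28 ± 0.15, neither called. Of 20 naive-state and LIF-response genes, Gbx2 alone was called (5%, against 4.07% of all genes), with a list median of 0.06. Socs3, the feedback inhibitor that LIF induces, read 2628 and 3088 units in wild type and 4058 and 4432 units in the knockout at 72 h and was not called.

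Among endoderm factors 1 of 12 was called (8.33%, against 4.07% of all genes), the higher Hhex, a homeobox gene on chromosome 19. It read 370 and 436 units in wild type and 841 and 740 units in the knockout (0.98 ± 0.17, adjusted p = 0.00376), and its call was lost without knockout replicate 1. Gata4 and Sox17, defining endoderm factors, differed by 0.08 ± 0.41 and -0.20 ± 0.70. Of 15 endoderm products 2 were lower (13.3% called), the protease Plat (-1.59 ± 0.40) and the activin-binding protein Fst (-2.002 ± 0.36, understated). Plat was lost without any of the 4 arrays and Fst without wild-type replicate 2. Among germ cell genes 3 of 16 were lower (18.8% called), Mageb16 (-4.16 ± 0.80) and Fmr1nb (-3.97 ± 0.97), both X-linked, and the RNA helicase Ddx4 (-0.99 ± 0.20). The Fmr1nb call was lost without any of the 4 arrays, that of Mageb16 without wild-type replicate 2 or either knockout array, and that of Ddx4 without either wild-type array or knockout replicate 2. No member was called of the lists of basement membrane, neural, mesoderm, Wnt, FGF and PDGF, cholesterol synthesis, apoptosis and fibroblast genes by limma. Members with an unadjusted p under 0.05 numbered 3 of 14, 4 of 13, 1 of 6, 3 of 19, 7 of 22, 2 of 19, 3 of 14 and 2 of 5 in that order. With the replicate block 3 neural genes, 2 of the Wnt list and 3 of the FGF and PDGF list were called, and 0 of the others.

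Other named genes belonged to no group above or were the called members of smaller lists. Vwa5a, a protein with a von Willebrand domain, read 548 and 449 units in wild type and 48.5 and 15.2 units in the knockout, a fall by at least 3.31 (adjusted p = 0.000773). Pramel7, a gene of the early embryo, read 302 and 449 units in wild type and 62.9 and 66.5 units in the knockout (-2.51 ± 0.35, adjusted p = 0.00086). H1f2, a linker histone, read 504 and 681 units in wild type and 2528 and 3201 units in the knockout (2.28 ± 0.37, adjusted p = 0.00218). It was the 1 gene called of 18 chromatin genes (5.56%, against 4.07% of all genes). All 3 held without each of the 4 arrays. Of 17 metallothionein and stress genes, 1 was higher and 2 were lower (17.6% called), and with the replicate block 1 and 5. Txnip, an inhibitor of thioredoxin and glucose uptake, read 3013 and 2732 units in wild type and 4553 and 5862 units in the knockout (0.85 ± 0.14, adjusted p = 0.00311), a call that was lost without knockout replicate 2. Mt1, a metallothionein on chromosome 8, read 2741 and 2654 units in wild type and 1436 and 1218 units in the knockout (-1.03 ± 0.22, adjusted p = 0.0148), and its call was lost without any of the 4 arrays, as was that of the stress factor Atf3 (-1.16 ± 0.29). Of 17 BMP and Id genes 1 was lower (5.88% called), the signal transducer Smad1 on chromosome 8 (-0.89 ± 0.18). Its call was lost without wild-type replicate 2 or either knockout array. With the replicate block 1 of them was higher and 2 were lower.

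The higher genes mostly differed in the same direction on the 12 arrays at 8 h. The levels compared come from separate arrays, but both sets of calls use 1 estimate of the spread per gene from the shared fit. There 1473 genes were called (12.9%), 595 higher (5.22%) and 878 lower (7.71%), and 2320 with the replicate block. Of the 158 genes higher at 72 h, 129 were higher at 8 h (81.6% of the 158 and 21.7% of the 595) and 0 were lower. Of the 305 lower at 72 h, 135 were lower at 8 h (44.3% of the 305 and 15.4% of the 878) and 1 was higher. Of the higher genes at 72 h, 81 lie on chromosome 19, whose median was shifted at both times. Off chromosomes 8, 19 and X, 50 of 75 higher genes and 81 of 223 lower genes were called the same way at 8 h. The median difference of the lower genes was -1.30 at 72 h and -0.38 at 8 h, and that of the higher genes 0.80 and 0.52. Across the 11388 genes the differences at 72 h and 8 h correlated with Pearson's r of 0.516 and Spearman's rho of 0.507, a description over genes that share arrays and chromosomes and are not replicates.

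Between 8 h and 72 h the genotype difference changed for 67 genes (0.588%), 61 of them toward lower in the knockout (0.536%) and 6 toward higher (0.0527%). Of the 61, 56 were also called at 72 h, 54 rose in wild type from untreated cells to 72 h of RA and 13 rose in the knockout, with median responses of 2.04 and 0.03. Over all genes tested, 16.1% rose and 8.64% fell in wild type, and 14.8% rose and 8.26% fell in the knockout. Of the 305 genes lower at 72 h, 201 rose and 18 fell in wild type, and 84 rose and 40 fell in the knockout. Those responses share the 72 h arrays with the change. Tagln led the 61 with a change of -5.46 ± 0.31 (adjusted p = 1.89e-07). Nrp1, a co-receptor of semaphorins and VEGF, read 475 and 707 units in wild type and 119 and 42.2 units in the knockout and changed by -2.65 ± 0.43 (adjusted p = 0.00787). Edn1, the peptide endothelin, read 398 and 302 units in wild type and 56.9 and 11.4 units in the knockout and changed by -2.17 ± 0.43 (adjusted p = 0.0338). The count of changes was 36 without knockout replicate 1, 31 without wild-type replicate 2 and 25 without knockout replicate 2.

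The 6 changes toward higher were led by Gata6, an endoderm factor, and Lefty1, a Nodal inhibitor. Gata6 read 1297 and 932 units in wild type and 1636 and 1472 units in the knockout at 72 h. It differed by 0.50 ± 0.41 at 72 h, without a call, and by -1.79 at 8 h, a change of 2.29 ± 0.47 (adjusted p = 0.0396). Lefty1 read 2727 and 2826 units in wild type and 3408 and 3060 units in the knockout, differed by 0.22 ± 0.23 at 72 h and by -1.47 at 8 h, and changed by 1.68 ± 0.27 (adjusted p = 0.00656). These genes were lower in the knockout at 8 h and were not called at 72 h. Olig3, a neural factor, read 80.7 and 83.0 units in wild type and 263 and 248 units in the knockout. It was higher in the knockout at 72 h (1.64 ± 0.22) and differed by 0.04 at 8 h. Its 8 h arrays read 59.7 units at most and lay mostly under the floor, so a difference there could not be measured. In the fit of the 4 arrays at 72 h alone Olig3 was not called by limma (adjusted p = 0.0527).

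**Figure D4:**
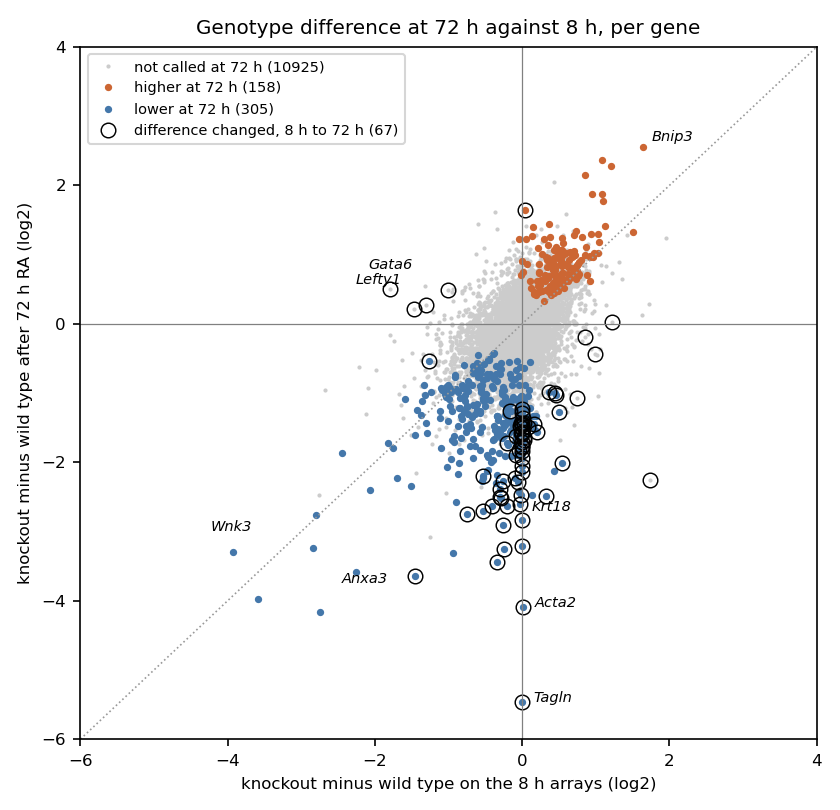
Genotype difference per gene (knockout minus wild type, log2) after 72 h of RA against the mean difference on the 8 h arrays, for 11388 genes; colours mark the 158 higher and 305 lower genes at 72 h, rings the 67 genes whose difference changed, and the dotted line marks equal differences. Tagln and Acta2 lie near 0 on the 8 h axis and at -5.46 and -4.09 at 72 h.

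Genes of some chromosomes stood out among the calls. Over all genes tested, 1.39% were higher and 2.68% lower. Of 414 genes of chromosome 19 tested, 81 were higher and 2 lower, with a median of 0.48, and Cyp26a1 itself lies there. Of 638 genes of chromosome 8, 55 were lower and 0 higher, with a median of -0.29. Of 369 X-linked genes 25 were lower (6.78%) and 2 higher (0.542%). The chromosome medians were close in the pairs of replicates numbered 1 and 2, at 0.48 and 0.50 for chromosome 19 and -0.29 and -0.24 for chromosome 8. On the 8 h arrays the medians were 0.46 and -0.24. Off chromosomes 8 and 19, 77 genes were higher and 248 lower. Of the X-linked genes Sh3bgrl, a small SH3-binding protein, read 859 and 974 units in wild type and 59.2 and 98.5 units in the knockout (-3.58 ± 0.26, adjusted p = 2e-06). Wnk3, a kinase, read 770 and 314 units in wild type and 8.93 and 16.04 units in the knockout, a fall by at least 3.30 at 72 h beside -3.93 on the 8 h arrays. The part of the chromosomes in the gene results was not tested.

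**Figure D5:**
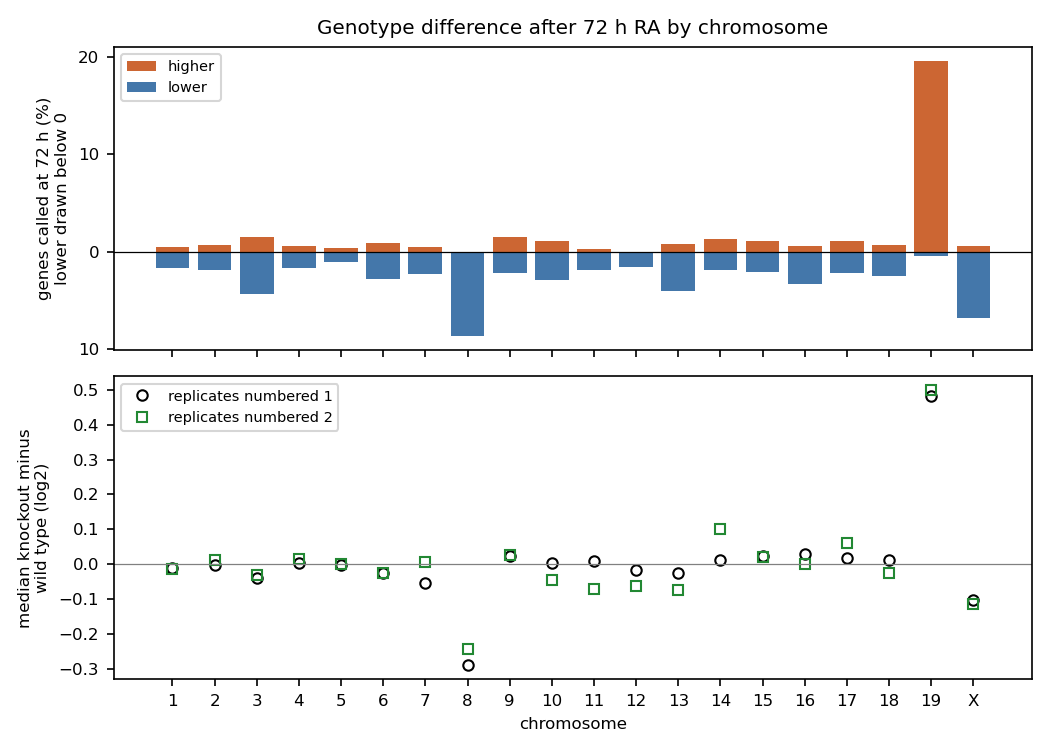
Upper panel: percent of tested genes of each chromosome called higher (above 0) or lower (below 0) in the knockout after 72 h RA. Lower panel: median log2 difference per chromosome in the arrays numbered 1 and in those numbered 2; chromosome 19 lies at 0.48 and 0.50 and chromosome 8 at -0.29 and -0.24.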

How the data were processed

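Total RNA of 18 samples was labelled with biotin and each was hybridised to 1 array, per the labels' protocols. The authors deposited linear signal intensity per probe set, made with MAS5 per the submitters' processing notes, whose version is not given in the sources used here. Arrays were brought to a trimmed mean of 500 (a share of 0.02 left out at each end), floored at 50 units and put on the log2 scale. Values at the floor do not vary, so genes under it on many arrays can get standard errors and p-values that are too small. The probe set with the highest mean stood for a gene, which gave 18194 genes named from the platform annotation. Of these, 11388 reached 100 units on at least 2 of the 16 arrays of the fit. The tests come from 1 fit of 6 groups (limma 3.58.1, R 4.3.3, lmFit and eBayes with an intensity trend, 10 residual degrees of freedom). P-values are two-sided and were adjusted by Benjamini-Hochberg across every gene tested, with a threshold of 0.05, and only genes past it are called higher or lower. The 8 h difference is the mean of those in controls and after 8 h RA, and the change is the 72 h difference minus it. "At least" marks a group with both arrays at the floor, and understated one with 1 array there.

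Same-numbered knockout and wild-type arrays deviated together: over 8 pairs their deviations from the group means correlated at 0.15 to 0.50. The replicate number was therefore used as a block beside the main fit. The lowest value, 0.15, was that of the arrays at 72 h, where both pairs give the same number by construction. Deviations within a group cancel, so the 8 pairs are not independent. For 4 wild-type arrays the numbers follow accession order only. The procedure was tested on simulated data. Named genes were Cyp26a1, the 15 largest rises and 15 largest falls called, the 8 further ones each way off chromosomes 8, 19 and X, up to 6 called members of each of 30 lists (or the 2 largest differences where none was called), and the 10 largest changes each way. Not all are described. The members and lists were chosen with earlier results of these data known. The 2 arrays without LIF were used only where labels were exchanged. The number of arrays limits the precision, and the median standard error at 72 h was 0.24.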

Additional observations from a re-analysis of the deposited data

Results flagged for a closer look

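For 22 named genes the genotype difference itself changed between the 8 h and the 72 h arrays, by the limma contrast of the 2 differences (adjusted p under 0.05). Toward lower in the knockout the changes, in log2, were -5.46 for Tagln, -4.11 for Acta2, -3.99 for Anxa1, -3.21 for Cyp1b1, -3.09 for Acta1 and -3.02 for Myl9. They were -2.84 for Prss23, -2.82 for Fxyd6, -2.65 for Nrp1, -2.58 for Krt18, -2.23 for Pramel7 and -2.22 for Tpm1. They were -2.20 for Dlk1, -2.19 for Anxa3, -2.17 for Edn1 and -2.004 for Pmp22. Toward higher they were 0.73 for Suclg2, 1.499 for Sgk2, 1.57 for Aard, 1.597 for Olig3, 1.68 for Lefty1 and 2.29 for Gata6. Standard errors ran from 0.15 for Suclg2 to 0.81 for Anxa1. Values at the floor enter these changes as 50 units, so they are not bounds. Cyp1b1 read 205 and 1038 units in wild type and 28.3 and 36.1 units in the knockout at 72 h.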

How the results depend on the processing

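None of 113 named genes took the opposite sign under the 31 alternatives run for it, where a vanished difference was not counted as a turn. This is no check in many of them. With the block, the omission of 8 h arrays or other eBayes settings, the 72 h difference comes from the same values, so its sign could not turn. For called genes, whose 72 h arrays did not overlap, it could not turn without 1 of those arrays either. Of the 87 called, 18 were called under each alternative, 48 were lost without wild-type replicate 2 at 72 h, and 56 in the fit of the 4 arrays alone. For the 72 h difference (463 genes) the count was 73 in those 4 arrays alone, 1004 with the replicate block, 274 without chromosomes 8 and 19, and 267 with a 2-fold minimum. With single arrays left out it ran from 177 to 513. For the 8 h difference (1473 genes) it was 2320 with the replicate block, 822 without chromosomes 8 and 19, and 1137 to 1386 with single arrays left out. For the change (67 genes) it was 44 with quantile normalization, 240 and 13 with floors of 100 and 20 units, 16 with 32 added in place of the floor, 154 without the filter and 26 with 2 arrays at 200 units. It was 42 against 8 h RA alone, 39 against controls alone, 99 with the replicate block and 25 to 70 with single arrays left out. With the replicate block but without the 4 arrays numbered by accession order, an alternative chosen after seeing the data, the counts were 836, 395 and 42 in that order. The causes were not tested. The other alternatives kept the counts within 1.5 times. The counts of the lists without single arrays, with the block, with the higher filter and with the mean over probe sets, given with the results, were also chosen after seeing the data.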
